A study of Mus musculus with 4 samples.

Results

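Chemokines and their receptors were examined in livers of mice lacking the growth hormone receptor (GHR), the canalicular phospholipid transporter MDR2, or both. The members were all mouse genes whose symbol names a chemokine ligand or a signalling or atypical chemokine receptor and that had a row of their own on the array. The rule found 56 genes, 34 ligands and 22 receptors, among 19938 genes with such a row. The study compared 4 pools, each hybridised to 1 Affymetrix array: GHR/MDR2 double knockout, MDR2 knockout, GHR knockout and wild type. Each pool combined 3 livers from mice labelled male and 8 weeks old. The labels name neither the strain background nor the kind of deletion. MDR2, encoded by Abcb4, moves phosphatidylcholine into bile, and its loss in mice is a standard model of sclerosing cholangitis, with toxic bile, ductular reaction and fibrosis. Growth hormone resistance from GHR loss removes signalling through STAT5 in hepatocytes and lowers circulating IGF-1.

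Chemokines are small secreted or membrane-anchored proteins that set up gradients along which leukocytes migrate. They act on G protein-coupled receptors, which in turn signal through Gi to phosphoinositide 3-kinase and Rac, while atypical receptors bind chemokines without that signalling. In a liver with cholestasis, injured hepatocytes, cholangiocytes, stellate cells and macrophages release chemokines that draw in monocytes, neutrophils and lymphocytes.

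All intensities are linear values normalised by the authors with RMA, and all differences are log2 differences between single pools. Because each genotype was 1 array, a difference between 2 pools has no replicate check and carries no p-value. A gene was counted as higher or lower between 2 pools at 1.5-fold, if the higher pool had an intensity of at least 100, the median of all rows with 1 gene. Values below 100 may be background signal, and folds that use them are inexact. As a measure of noise, the robust SD of 1 pairwise difference, taken from how far all 10764 genes at or above that level departed from additivity, was 0.23 log2. The single test is an additive limma model over all 4 arrays, which gives each gene the average effect of MDR2 loss and of GHR loss with 1 residual degree of freedom. In bulk liver RNA, fewer cells of a type and less RNA per cell cannot be told apart.

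The labels were checked on the targeted genes and on sex-linked genes before the chemokines were read. Ghr had an intensity of 935 in the double knockout pool, 4485 in the MDR2 knockout pool, 1395 in the GHR knockout pool and 4944 in the wild-type pool. Abcb4 had 689 in the double knockout pool, 663 in the MDR2 knockout pool, 1346 in the GHR knockout pool and 1120 in the wild-type pool. The 2 pools labelled as lacking each gene were therefore the lower 2 for it. Xist, which female cells transcribe from the inactive X chromosome, had 1400 in the GHR knockout pool, against 17 in the double knockout, 18 in the MDR2 knockout and 16 in the wild-type pool. The Y-linked gene Eif2s3y had 680 in the GHR knockout pool and 840 to 951 in the others. The library labelled GHR knockout thus carries RNA that goes against an all-male pool. Comparisons of double knockout with MDR2 knockout, MDR2 knockout with wild type and double knockout with wild type do not use that array, but the limma model does and cannot be fitted without it. The 15 measured hepatocyte markers had at least 2424 in every pool, as liver RNA would have.

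Of the 56 genes, 27 reached 100 in at least 1 pool, and the other 29 lay between 14 and 88 in all pools. The highest genes below the level were Ackr2 at 88, Ccr7 at 72 and Xcr1 at 69. The lowest above it were Cxcr3 at 102, Cxcl2 at 103 and Ccl3 at 111. The highest of the 4 values fell in the double knockout pool for 17 of the 27, in the MDR2 knockout pool for 5 and in the GHR knockout pool for 5. For none of the 27 did it fall in the wild-type pool. This count only describes the genes, since each entered through its highest pool.

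**Figure D1:**
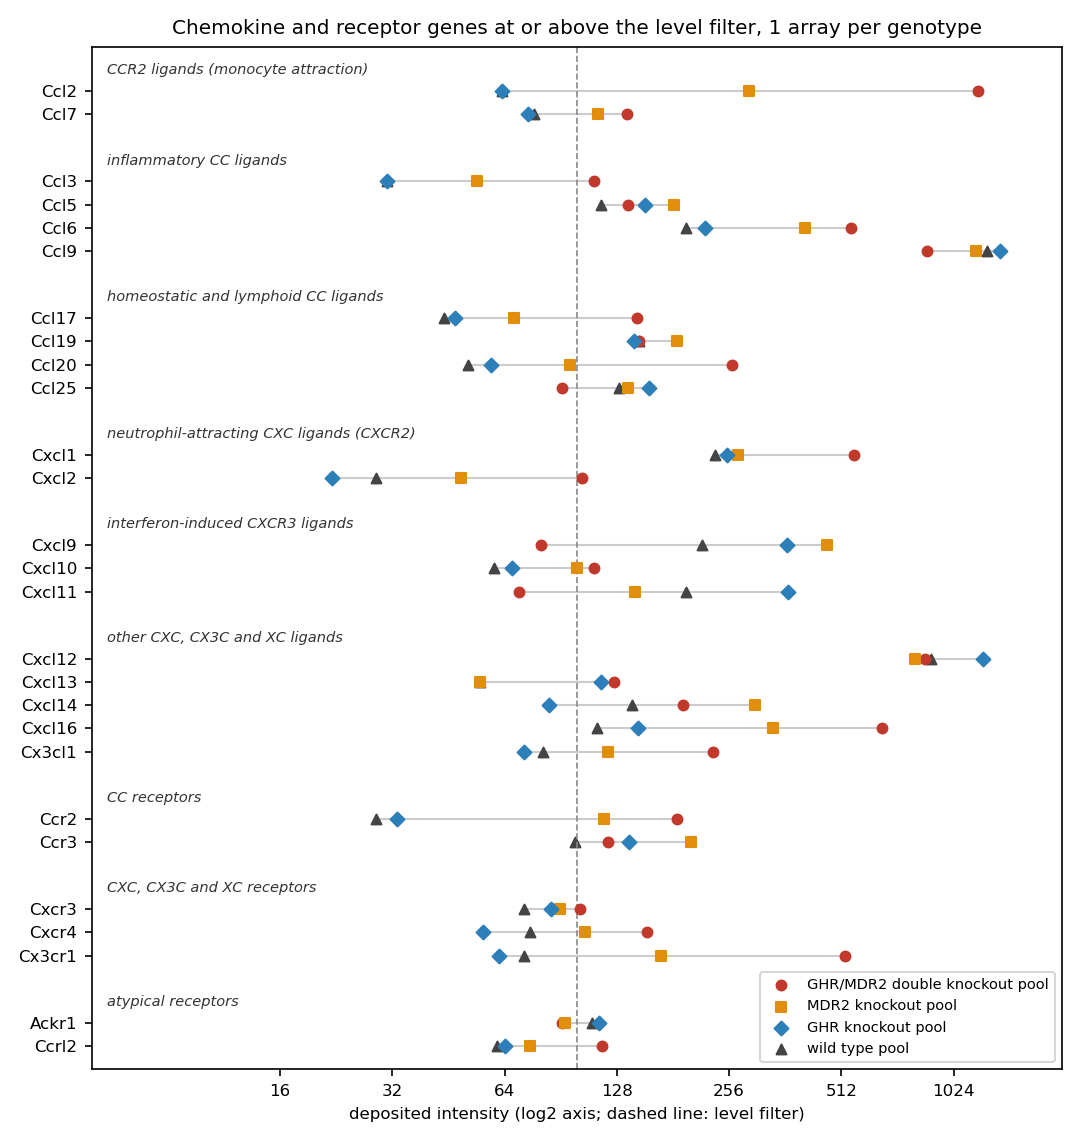
Intensity of each of the 27 chemokine and receptor genes at or above 100 in any pool, on a log axis, for the double knockout, MDR2 knockout, GHR knockout and wild-type pools. Each point is 1 array of a pool of 3 livers, and Ccl2 spans from 63 in the wild-type pool to 1192 in the double knockout pool.

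The monocyte chemokine Ccl2 and its receptor Ccr2 had their highest values in the double knockout pool, and Ccl2 had the largest difference of the 27 genes between double knockout and wild type, 18.9-fold. Ccl2 encodes the chemokine that calls CCR2-bearing monocytes out of bone marrow and into injured tissue. Its intensity was 1192 in the double knockout pool, 290 in the MDR2 knockout pool, 63 in the GHR knockout pool and 63 in the wild-type pool. It was 4.11-fold higher in the double knockout pool than in the MDR2 knockout pool, while the GHR knockout and wild-type pools did not differ in it. By the limma model it rose with MDR2 loss by 3.22 ± 0.46 log2 (SE; Benjamini-Hochberg adjusted p = 0.0357), and was higher in 2 of 2 pairs. The call was lost with limma's trend and robust options (adjusted p = 0.155) and at a level of 329 (adjusted p = 0.0634), within a range over the alternatives of 0.024 to 0.327. Ccr2, the receptor of these monocytes, had 186 in the double knockout pool, 118 in the MDR2 knockout pool, 33 in the GHR knockout pool and 29 in the wild-type pool. The 2 pools lacking MDR2 stood above both others, and limma gave a rise with MDR2 loss of 2.26 ± 0.17 log2 (SE; adjusted p = 0.0169). The double knockout pool was 1.58-fold above the MDR2 knockout pool, which fell under 1.5-fold when arrays were centred on their medians.

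Ccl7, the neighbour of Ccl2 and also a CCR2 ligand, differed far less. It had 136 in the double knockout pool, 114 in the MDR2 knockout pool, 74 in the GHR knockout pool and 77 in the wild-type pool. Its limma effect of MDR2 loss was 0.72 ± 0.15 log2 with an adjusted p of 0.0700. Ccl12, the remaining CCR2 ligand of the mouse, lay between 17 and 23 and was below the level in all pools.

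The membrane-anchored ligand Cx3cl1 (fractalkine) and its receptor Cx3cr1, carried by patrolling monocytes and many macrophages, had the same order of pools. Cx3cr1 had 525 in the double knockout pool, 168 in the MDR2 knockout pool, 62 in the GHR knockout pool and 72 in the wild-type pool. It was 3.12-fold higher in the double knockout pool than in the MDR2 knockout pool, and 2.33-fold higher in the MDR2 knockout pool than in the wild-type pool. Its limma effect of MDR2 loss, 2.15 ± 0.43 log2 (SE), did not pass the test (adjusted p = 0.0596). Cx3cl1 had 232 in the double knockout pool, 121 in the MDR2 knockout pool, 72 in the GHR knockout pool and 81 in the wild-type pool, 1.92-fold higher in the double knockout than in the MDR2 knockout. Of all receptors at or above the level, Cx3cr1 had the largest difference between the double knockout and MDR2 knockout pools, 1.64 log2.

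The inflammatory CC ligands, which attract monocytes, macrophages and other leukocytes, differed from one another in direction. Ccl6, a mouse CCR1 ligand made by macrophages, had 542 in the double knockout pool, 410 in the MDR2 knockout pool, 221 in the GHR knockout pool and 196 in the wild-type pool. It rose with MDR2 loss by 1.18 ± 0.15 log2 (SE; limma, adjusted p = 0.0293), with the double knockout only 1.32-fold above the MDR2 knockout. At a level of 329 its adjusted p by limma was 0.0521, in a range of 0.0185 to 0.327. Ccl3 (MIP-1 alpha) had 111 in the double knockout pool and 54, 31 and 31 in the MDR2 knockout, GHR knockout and wild-type pools, so that only 1 of its values reached the level. Ccl9, a further CCR1 ligand and the neighbour of Ccl6, had 871 in the double knockout pool, 1178 in the MDR2 knockout pool, 1362 in the GHR knockout pool and 1260 in the wild-type pool. It was lowest in the double knockout pool, within 1.5-fold of the MDR2 knockout pool and 1.56-fold below the GHR knockout pool. The latter difference fell under 1.5-fold after cyclic loess and when arrays were centred on their medians or on hepatocyte markers. Ccl5 (RANTES), a T cell and platelet chemokine, had 137 in the double knockout pool, 182 in the MDR2 knockout pool, 152 in the GHR knockout pool and 116 in the wild-type pool. It was highest in the MDR2 knockout pool, 1.57-fold above wild type. Ccr1, the receptor that these ligands share, stayed below the level, at 67 in the double knockout pool and 17 to 24 in the others.

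Ccl20, which attracts CCR6-bearing dendritic cells and Th17 cells, and Ccl17, which attracts CCR4-bearing T cells, were each highest in the double knockout pool. Ccl20 had 260 in the double knockout pool, 96 in the MDR2 knockout pool, 59 in the GHR knockout pool and 51 in the wild-type pool. Ccl17 had 145 in the double knockout pool, 68 in the MDR2 knockout pool, 47 in the GHR knockout pool and 44 in the wild-type pool. Both reached the level in the double knockout pool alone, and their limma effects of MDR2 loss had adjusted p-values of 0.0589 for Ccl20 and 0.0794 for Ccl17. Their receptors stayed below the level in all pools, with Ccr6 at 34 to 38 and Ccr4 at 27 to 30. Ccl19, a CCR7 ligand of lymphoid tissue, had 147 in the double knockout pool, 186 in the MDR2 knockout pool, 142 in the GHR knockout pool and 147 in the wild-type pool, within 1.5-fold in all 5 comparisons. Ccl25, the CCR9 ligand known from gut and thymus, had 91 in the double knockout pool, 137 in the MDR2 knockout pool, 156 in the GHR knockout pool and 130 in the wild-type pool. Its value was lower by 1.51-fold in the double knockout than in the MDR2 knockout pool in the row used, and within 1.5-fold when its 2 rows were averaged.

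Cxcl1 and Cxcl2, ligands of the neutrophil receptor CXCR2, were higher in the double knockout pool than in every other pool. Cxcl1 had 553 in the double knockout pool, 270 in the MDR2 knockout pool, 253 in the GHR knockout pool and 234 in the wild-type pool. It was 2.05-fold higher in the double knockout than in the MDR2 knockout, while the MDR2 knockout was 1.15-fold above wild type. Its limma effect of MDR2 loss was 0.67 ± 0.24 log2 and did not pass the test (adjusted p = 0.182). Cxcl2 had 103 in the double knockout pool, 49 in the MDR2 knockout pool, 22 in the GHR knockout pool and 29 in the wild-type pool, so that only the double knockout value reached the level. Cxcl3 and Cxcl5, of the same group, stayed below it at 26 to 30 and 22 to 42, as did the receptor Cxcr2 at 38 to 45. Of the 12 neutrophil markers, 1 reached the level in any pool, and their summed intensity was 544 in the double knockout, 555 in the MDR2 knockout, 562 in the GHR knockout and 457 in the wild-type pool. The marker at the level was Csf3r, the G-CSF receptor. It had 121 in the double knockout pool, 88 in the MDR2 knockout pool, 73 in the GHR knockout pool and 51 in the wild-type pool. This was the order of Cxcl1, but most of the 12 markers went the other way between the double knockout and MDR2 knockout pools. There, 4 of the 12 were higher and 8 lower in the double knockout, with a median of -0.12 log2. The part of neutrophil number in these values was not tested.

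The promoters of Cxcl1, Cxcl2, Cxcl3 and Ccl20 are shown because their NF-kB-type site is a textbook feature of inflammatory chemokines and because the first 3, which lie in 1 cluster on chromosome 5, share it. They come from RefSeq on GRCm38.p6, 250 bases before the start of each gene, 5′ to 3′ on the gene's strand, with matches to the searched motifs in capitals. Cxcl3 lies at chr5:90785851-90786100, Cxcl1 at chr5:90890995-90891244, Cxcl2 at chr5:90903649-90903898 and Ccl20 at chr1:83116516-83116765, all on the plus strand.
Cxcl1: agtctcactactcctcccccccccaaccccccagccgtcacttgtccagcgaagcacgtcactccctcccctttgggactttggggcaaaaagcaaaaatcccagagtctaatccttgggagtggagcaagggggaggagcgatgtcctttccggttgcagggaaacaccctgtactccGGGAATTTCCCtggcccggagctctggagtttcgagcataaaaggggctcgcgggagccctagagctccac
Cxcl2: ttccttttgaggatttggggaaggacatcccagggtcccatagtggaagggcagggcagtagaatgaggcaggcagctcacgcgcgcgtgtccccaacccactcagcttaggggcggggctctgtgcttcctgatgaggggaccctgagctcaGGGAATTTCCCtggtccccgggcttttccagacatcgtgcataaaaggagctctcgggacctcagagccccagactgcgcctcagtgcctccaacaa
Cxcl3: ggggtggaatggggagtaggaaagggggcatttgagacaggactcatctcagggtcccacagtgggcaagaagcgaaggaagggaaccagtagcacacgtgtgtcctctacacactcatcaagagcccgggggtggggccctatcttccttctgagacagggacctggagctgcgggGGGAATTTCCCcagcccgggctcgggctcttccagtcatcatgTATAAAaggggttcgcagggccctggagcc
Ccl20: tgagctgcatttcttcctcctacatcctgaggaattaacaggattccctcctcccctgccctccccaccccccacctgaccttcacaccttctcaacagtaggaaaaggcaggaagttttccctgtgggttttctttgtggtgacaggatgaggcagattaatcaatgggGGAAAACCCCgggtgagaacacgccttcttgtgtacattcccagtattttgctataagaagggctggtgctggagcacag
The NF-kB-type match, searched on both strands by the kB consensus, stood 61 to 71 bases before the start in Cxcl1, 87 to 97 in Cxcl2 and 63 to 73 in Cxcl3, each time as 2 overlapping matches shifted by 1 base. In Ccl20 it stood 71 to 80 bases before the start. Cxcl3 carries the same match as Cxcl1 and Cxcl2, and was below the level in all 4 pools. Cxcl15, which lies between Cxcl3 and Cxcl1, had no kB match in its window and was at 14 to 15. Among the 42 members with a promoter in the table, 12 (28.6%) had a kB match, against 8.23% of 27025 genes. The other motif searches gave ISRE, a pair of GAAA repeats with 2 bases of any kind between them, on both strands, in 7.14% of members and 3.46% of genes, and AP-1, TGANTCA on both strands, in 9.52% and 7.82%. The GAS motif, TTCNNNGAA on both strands, stood in 7.14% of members and 8.13% of genes, and TATAAA, on the gene's strand, in 28.6% and 8.94%. These matches are letters in a window and not sites, and for 14 members no promoter was used here.

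The ligands of CXCR3, the receptor of activated T and NK cells, are induced by interferon gamma and split from one another. Cxcl9 had 80 in the double knockout pool, 470 in the MDR2 knockout pool, 367 in the GHR knockout pool and 216 in the wild-type pool. It was lowest in the double knockout, 5.88-fold below the MDR2 knockout, and higher than wild type in each single knockout. Its departure from additivity was -3.32 log2, where the robust SD over all genes at or above the level was 0.33. Of those genes, 3.69% lay beyond 1 log2 in either direction. Neither value is a measure for a gene picked by its departure, and no test could be made with 1 array per genotype. The departure also uses the GHR knockout array, the one with Xist at 1400. Cxcl11, which RefSeq on GRCm38.p6 annotates as a transcribed pseudogene, had 70 in the double knockout pool, 143 in the MDR2 knockout pool, 369 in the GHR knockout pool and 196 in the wild-type pool. It too was lowest in the double knockout, 2.04-fold below the MDR2 knockout. Cxcl10, the third of the group, had 111 in the double knockout pool, 100 in the MDR2 knockout pool, 67 in the GHR knockout pool and 60 in the wild-type pool. It did not share the low double knockout value, and was 1.67-fold higher in the MDR2 knockout than in the wild type. Cxcr3 itself had 102 in the double knockout pool, 90 in the MDR2 knockout pool, 85 in the GHR knockout pool and 72 in the wild-type pool, within 1.5-fold in all 5 comparisons.

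**Figure D2:**
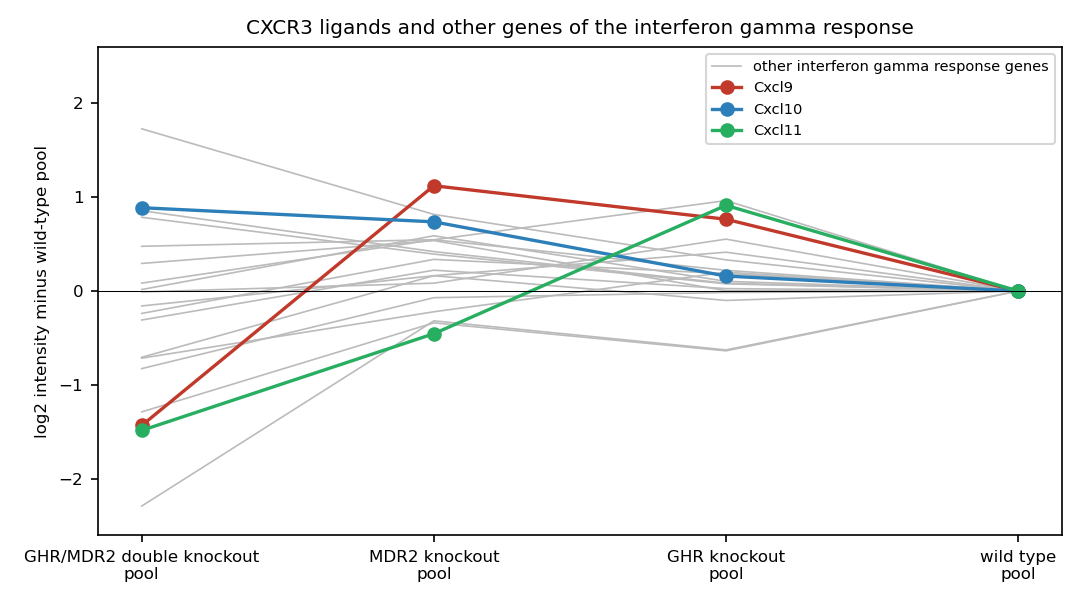
Log2 intensity minus the wild-type pool for Cxcl9, Cxcl10 and Cxcl11 (coloured) and other genes of the interferon gamma response at or above the level (grey), by pool, with 1 array per pool and lines that only join the values of 1 gene. In the double knockout pool Cxcl9 lies at -1.43 and Cxcl11 at -1.49, while Cxcl10 lies at 0.89.

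The promoters of the neighbours Cxcl9 and Cxcl10 are shown because the 2 ligands share an inducer and a receptor and differed in the double knockout pool. Both are 250 bases before the RefSeq start on GRCm38.p6, minus strand, Cxcl9 at chr5:92328080-92328329 and Cxcl10 at chr5:92348890-92349139, with motif matches in capitals.
Cxcl9: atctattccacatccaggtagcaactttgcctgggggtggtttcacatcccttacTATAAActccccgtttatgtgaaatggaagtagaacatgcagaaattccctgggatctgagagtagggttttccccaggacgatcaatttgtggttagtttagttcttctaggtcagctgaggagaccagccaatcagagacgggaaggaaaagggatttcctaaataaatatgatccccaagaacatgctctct
Cxcl10: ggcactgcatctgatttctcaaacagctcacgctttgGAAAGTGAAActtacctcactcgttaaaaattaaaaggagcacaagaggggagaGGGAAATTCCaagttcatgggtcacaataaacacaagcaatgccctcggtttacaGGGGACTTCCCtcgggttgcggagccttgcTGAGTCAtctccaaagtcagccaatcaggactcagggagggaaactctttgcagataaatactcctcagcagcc
Cxcl10 had kB matches at 94 to 104 and 150 to 159 bases before the start, an ISRE match at 204 to 213 and an AP-1 match at 68 to 74. Cxcl9 had no match to the kB, ISRE, GAS or AP-1 letters in this window, and 1 TATAAA at 190 to 195.

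Genes of the interferon gamma response were set beside the CXCR3 ligands. Of 22 measured, 1 was at least 1.5-fold higher and 4 lower in the double knockout than in the MDR2 knockout pool. These were 4.55% and 18.2% of the list, against 3.79% and 2.05% of all 19938 genes. The list was chosen with earlier results of these data known, so its shares only describe it. The median difference of the 22 was -0.23 log2. Iigp1, an interferon-induced GTPase, had 249 in the double knockout pool, 978 in the MDR2 knockout pool, 789 in the GHR knockout pool and 1219 in the wild-type pool. Gbp7, a guanylate-binding protein, had 133 in the double knockout pool, against 243 in the MDR2 knockout, 289 in the GHR knockout and 217 in the wild-type pool. The single higher gene was the receptor subunit Ifngr1, which rose with MDR2 loss by 1.11 ± 0.19 log2 (SE; limma, adjusted p = 0.0456), the only 1 of 16 tested genes of this list to pass. Ifng was at 37 to 43 in all pools. T cell markers had summed intensities of 572 in the double knockout, 599 in the MDR2 knockout, 625 in the GHR knockout and 518 in the wild-type pool, with 1 of 12 at or above the level, and none of 11 NK cell markers reached it. The part of lymphocyte number in the Cxcl9 values was not tested.

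Among the other CXC ligands, Cxcl16 and Cxcl14 rose with MDR2 loss. Cxcl16, a transmembrane ligand of CXCR6 that also binds oxidised lipoproteins, had 660 in the double knockout pool, 336 in the MDR2 knockout pool, 146 in the GHR knockout pool and 113 in the wild-type pool. It rose by 1.87 ± 0.19 log2 (SE; limma, adjusted p = 0.0232), and the double knockout was 1.96-fold above the MDR2 knockout. Its receptor Cxcr6, known from liver NKT cells, stayed below the level at 34 to 53. Cxcl14, an epithelial chemokine, had 193 in the double knockout pool, 301 in the MDR2 knockout pool, 84 in the GHR knockout pool and 141 in the wild-type pool. It rose with MDR2 loss by 1.15 ± 0.14 log2 (SE; limma, adjusted p = 0.0291), and was lower without GHR by 1.56-fold in the double knockout against the MDR2 knockout and by 1.68-fold in the GHR knockout against wild type. With arrays centred on hepatocyte markers, the difference between the double knockout and MDR2 knockout pools was -0.56 log2, within 1.5-fold. The lower value without GHR did not pass the test (adjusted p = 0.176 by limma).

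Cxcl13, the CXCR5 ligand that organises B cell follicles, differed by GHR status on both backgrounds. It had 126 in the double knockout pool, 55 in the MDR2 knockout pool, 116 in the GHR knockout pool and 55 in the wild-type pool. The 2 pools lacking GHR were above the level and both others below it, with a difference of 1.20 log2 on the MDR2 knockout background and 1.08 on the wild type. Limma gave an average effect of GHR loss of 1.14 ± 0.14 log2 (SE) with an adjusted p of 0.055, just above the threshold. The difference on the wild-type background and the limma effect both use the GHR knockout array, the one with Xist at 1400. Cxcr5 was at 14 to 22 in all pools. Of 9 B cell markers, 1 reached the level in any pool. The 9 summed to 401 in the double knockout, 407 in the MDR2 knockout, 463 in the GHR knockout and 385 in the wild-type pool. Cxcl12, the CXCR4 ligand that stromal and endothelial cells make without inflammation, had 856 in the double knockout pool, 807 in the MDR2 knockout pool, 1228 in the GHR knockout pool and 892 in the wild-type pool, within 1.5-fold in all 5 comparisons.

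Of the remaining receptors, Cxcr4, which retains leukocytes and precursors near CXCL12, had 154 in the double knockout pool, 105 in the MDR2 knockout pool, 56 in the GHR knockout pool and 75 in the wild-type pool. It was 2.75-fold higher in the double knockout than in the GHR knockout, and its limma effect of MDR2 loss did not pass (adjusted p = 0.101). Ccr3, the eosinophil receptor, had 121 in the double knockout pool, 203 in the MDR2 knockout pool, 138 in the GHR knockout pool and 99 in the wild-type pool. It was highest in the MDR2 knockout, 2.05-fold above wild type, while none of 8 eosinophil and mast cell markers reached the level. Ccrl2, an atypical receptor that presents chemerin, had 117 in the double knockout pool, 75 in the MDR2 knockout pool, 64 in the GHR knockout pool and 61 in the wild-type pool. Ackr1, the Duffy antigen that binds many chemokines without signalling, had 91 in the double knockout pool, 93 in the MDR2 knockout pool, 115 in the GHR knockout pool and 110 in the wild-type pool. Its values lay within 1.5-fold in all 5 comparisons.

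Counted over the 56 genes, 10 were at least 1.5-fold higher in the MDR2 knockout than in the wild-type pool and 0 lower. Over all genes compared, 6.11% were higher and 3.59% lower. As a share of each whole list, the 10 were 17.9% of the chemokine genes, against 3.14% of all 19938. Between the double knockout and MDR2 knockout pools, 12 were higher and 5 lower, against 7.17% and 3.89% of all genes compared. The 5 lower were Ccl25, Ccr3, Cxcl9, Cxcl11 and Cxcl14. Of each whole list, 21.4% of the 56 were higher and 8.93% lower, against 3.79% and 2.05% of all 19938. Between the double knockout and GHR knockout pools, 16 were higher and 4 lower, against 9.99% higher and 9.94% lower of all genes compared. The shares of each whole list were 28.6% higher and 7.14% lower of the 56, against 5.27% and 5.24% of all 19938. Between the double knockout and wild-type pools, 16 were higher and 2 lower, against 13.7% and 7.6% of all genes compared. Here the shares of each whole list were 28.6% higher and 3.57% lower of the 56, against 7.21% and 4.0% of all 19938. Between the GHR knockout and wild-type pools, 3 were higher (Cxcl9, Cxcl11 and Cxcl13) and 1 lower (Cxcl14), against 4.26% and 2.48% of all genes compared. As a share of each whole list, the higher genes were 5.36% of the 56, against 2.15% of all 19938. The median over all 56 was 0.21 log2 for MDR2 knockout over wild type, 0.084 for double knockout over MDR2 knockout and 0.11 for GHR knockout over wild type. Over all 19938 genes the same medians were 0.0048, 0.0 and 0.048. With arrays centred on their medians the members' values for double knockout over MDR2 knockout and for GHR knockout over wild type turned slightly negative, to -0.0064 and -0.015.

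By the limma model, of the 56 genes 27 reached the level and were tested, and 5 rose with MDR2 loss, namely Ccl2, Ccl6, Ccr2, Cxcl14 and Cxcl16, and 0 fell. Over all 10764 genes tested, 2.99% rose and 0.762% fell. At an unadjusted p below 0.05, 16 of the 27 were higher and 1 (Cxcl11) lower, where 12.3% of all 10764 were higher and 11.4% lower. The 27 entered through their highest pool, which for 17 of them was the double knockout, so these counts only describe the genes. With GHR loss, 0 passed by limma, where 0.204% of all genes rose and 0.316% fell. At an unadjusted p below 0.05, 3 were higher with GHR loss and 1 lower, where 9.53% of all genes were higher and 3.52% lower. The model assumes that each loss acts alike on both backgrounds, while Cxcl9 differed in opposite directions on the 2 backgrounds. When all 19938 genes were tested without the level filter, no gene passed for either loss, and the smallest adjusted p of a chemokine gene was 0.327.

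Each loss could also be read in 2 pairs of pools that share no array. For MDR2 loss (double knockout against GHR knockout, and MDR2 knockout against wild type), 31 of the 56 genes were higher in both pairs and 5 lower in both, or 55.4% and 8.93%. Of all genes, 29.5% were higher in both and 30.1% lower in both. At 1.5-fold, 7 genes were higher in both pairs (Ccl2, Ccl6, Ccr2, Cx3cr1, Cxcl10, Cxcl14 and Cxcl16), 12.5% of the members against 2.31% of all genes. For GHR loss (double knockout against MDR2 knockout, and GHR knockout against wild type), 19 were higher in both (33.9%), 6 lower in both (10.7%) and 26 opposite. Of all 19938 genes, 29.8% were higher in both, 23.2% lower in both and 7147 opposite, so the members' higher share was near that of all genes. At 1.5-fold, only Cxcl13 was higher in both (1.79% of the members, against 0.672% of all genes). Only Cxcl14 was lower in both, against 120 of all 19938 genes, and its call did not hold under hepatocyte centring. Ccl2, Cx3cr1, Ccl20 and Cxcl1 are named here because they were higher in the double knockout than in the MDR2 knockout pool. Between the GHR knockout and wild-type pools they differed by 0.00, -0.22, 0.21 and 0.11 log2. Only Cxcl1 reached the level in those pools, so the other differences are inexact, and the GHR knockout array is the one with Xist at 1400. The departures from additivity of these 4 genes were 2.04, 1.86, 1.23 and 0.92 log2. Of all genes, 3.69% lay beyond 1 log2 in either direction, which is no measure for genes picked by high double knockout values.

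**Figure D3:**
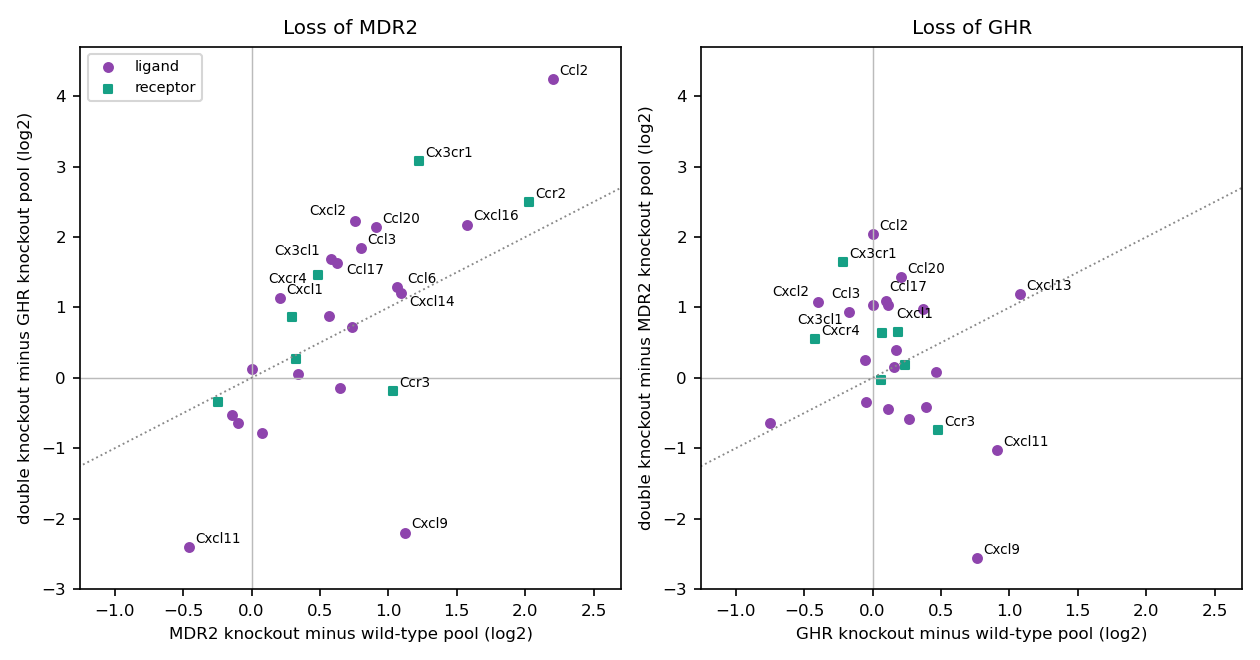
Log2 difference of each of the 27 genes for MDR2 loss (left) and GHR loss (right) in the 2 pairs of pools that share no array, with the dotted line at equal differences. For GHR loss Ccl2 lies at 2.04 on the MDR2 knockout background and 0.00 on the wild type, and Cxcl9 at -2.55 and 0.76.

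Ligands and receptors of 1 pair did not always differ together. Between the double knockout and MDR2 knockout pools, Ccl2 and Ccr2 differed by 2.04 and 0.66 log2, and Cx3cl1 and Cx3cr1 by 0.94 and 1.64. Cxcl12 and Cxcr4 differed by 0.085 and 0.55. For Cxcl16, Ccl20, Ccl17, Cxcl13, Cxcl1 and Cxcl2, the receptor was below the level in all pools, so that no pair could be read.

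Neighbouring chemokine genes on a chromosome also differed in level and direction. On chromosome 11, Ccl2 and Ccl7 lie side by side, with differences between the double knockout and MDR2 knockout pools of 2.04 and 0.25 log2. In the second cluster of that chromosome, Ccl5, Ccl9, Ccl6 and Ccl3 differed by -0.41, -0.44, 0.40 and 1.04 log2. On chromosome 8, Cx3cl1 and Ccl17 lie side by side and differed by 0.94 and 1.09 log2, with Ccl22 next to them below the level. On chromosome 5, Cxcl1 and Cxcl2 differed by 1.03 and 1.07 log2, and Cxcl9 and Cxcl10, with 1 protein-coding gene between them, by -2.55 and 0.15.

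**Figure D4:**
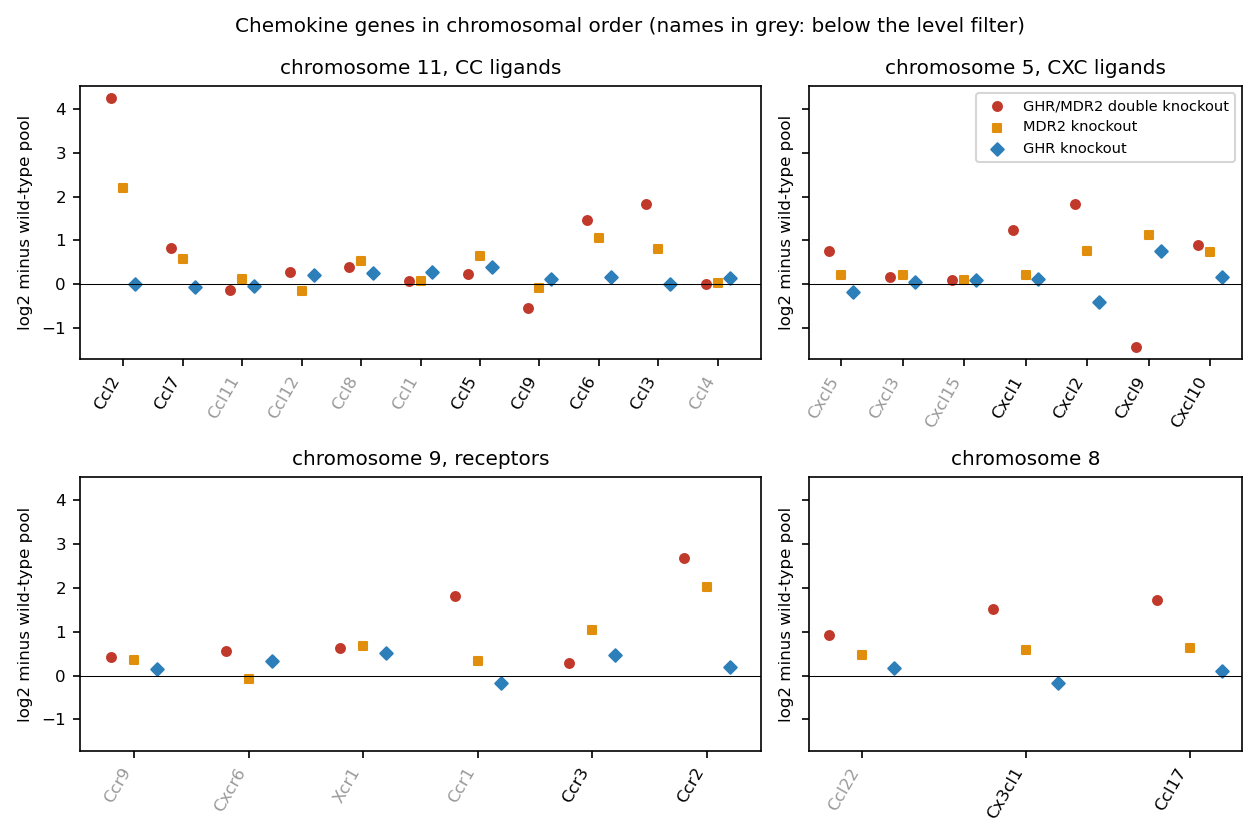
Log2 intensity minus the wild-type pool of chemokine and receptor genes in chromosomal order, for the double knockout, MDR2 knockout and GHR knockout pools, 1 array each, with names in grey where a gene is below the level. Neighbours differ in size, as Ccl2 (4.24) and Ccl7 (0.82) do in the double knockout pool.

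Genes of the pathways around chemokines were counted in the same way, in lists chosen with earlier results of these data known. Their shares therefore only describe the lists. Of all tested genes, 2.99% rose with MDR2 loss by limma. Of 22 tested genes of NF-kB, TNF and IL-1 signalling, the main inducers of inflammatory chemokines, 9 rose with MDR2 loss by limma (Cd14, Csf1, Icam1, Il1b, Il1rn, Nfkbie, Tlr2, Tnfaip3 and Vcam1). Tnf, at 38 to 63, and Il6, at 9 to 12, were below the level in all pools and were not tested. With GHR loss 0 of the 22 passed, with 11 higher and 0 lower at an unadjusted p below 0.05, where 9.53% of all genes were higher. Tnfaip3, which encodes the NF-kB inhibitor A20, had 473 in the double knockout pool, 191 in the MDR2 knockout pool, 87 in the GHR knockout pool and 54 in the wild-type pool. Vcam1, an adhesion molecule for leukocytes, had 875 in the double knockout pool, 399 in the MDR2 knockout pool, 180 in the GHR knockout pool and 147 in the wild-type pool. Between the double knockout and MDR2 knockout pools, 10 of the 27 measured were at least 1.5-fold higher and 0 lower, or 37.0% higher against 3.79% of all 19938 genes. Of 21 tested genes of receptor signalling in leukocytes, 2 rose with MDR2 loss, Arhgdib and Rgs2, the second of which limits G protein signalling. Of 12 tested other chemoattractants and their receptors, 3 rose, namely the complement receptors C3ar1 and C5ar1 and Cd74, a receptor of MIF. C3ar1 had 742 in the double knockout pool, 316 in the MDR2 knockout pool, 179 in the GHR knockout pool and 91 in the wild-type pool. Pf4, whose product is the platelet chemokine CXCL4 under another symbol, had 137 in the double knockout pool, 86 in the MDR2 knockout pool, 82 in the GHR knockout pool and 80 in the wild-type pool. Ppbp, of the same list, was below the level in all pools and went the other way. It had 34 in the double knockout, 53 in the MDR2 knockout, 78 in the GHR knockout and 49 in the wild-type pool.

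Cholangiocyte, monocyte and stellate cell markers had their highest sums in the double knockout pool, as Ccl2 and Cx3cr1 had their highest values there, while Kupffer, dendritic, endothelial and hepatocyte markers did not. The 11 cholangiocyte markers had a summed intensity of 2727 in the double knockout pool, 1311 in the MDR2 knockout pool, 910 in the GHR knockout pool and 722 in the wild-type pool. Of them, 8 were at least 1.5-fold higher in the double knockout than in the MDR2 knockout pool and 7 higher in the MDR2 knockout than in the wild type, against 3.79% and 3.14% of all 19938 genes. The 13 monocyte and recruited macrophage markers summed to 14398 in the double knockout, 11880 in the MDR2 knockout, 10320 in the GHR knockout and 8463 in the wild-type pool, and 6 of 13 were at least 1.5-fold higher in the double knockout than in the MDR2 knockout. Most of that sum came from Fn1 and Lyz2, which differed in opposite directions. Fn1, fibronectin, which hepatocytes also make, had 6231 in the double knockout, 7034 in the MDR2 knockout, 8053 in the GHR knockout and 6500 in the wild-type pool. Lyz2, lysozyme of myeloid cells, had 5243 in the double knockout, 2879 in the MDR2 knockout, 977 in the GHR knockout and 847 in the wild-type pool, and rose with MDR2 loss by 2.09 ± 0.20 log2 (SE; limma, adjusted p = 0.0209). The 10 stellate cell markers summed to 10888 in the double knockout, 8659 in the MDR2 knockout, 7831 in the GHR knockout and 6405 in the wild-type pool, mostly from the proteoglycan gene Dcn. Between the double knockout and MDR2 knockout pools, 2 of the 10 were at least 1.5-fold higher and 1 lower, with a median of 0.14 log2. Lrat, the retinol-storing enzyme, had 393 in the double knockout pool and 608 in the MDR2 knockout pool. The 13 endothelial markers summed to 8019 in the double knockout, 8638 in the MDR2 knockout, 9862 in the GHR knockout and 8018 in the wild-type pool, with a median of -0.14 log2 for double knockout over MDR2 knockout. The 11 Kupffer cell markers were not highest in the double knockout, with 6419 there, 11143 in the MDR2 knockout, 6665 in the GHR knockout and 7672 in the wild-type pool, much of it from C6, with 860 in the double knockout, 4355 in the MDR2 knockout, 385 in the GHR knockout and 2597 in the wild-type pool. The 11 dendritic cell markers, 4 of them at or above the level, summed to 1126 in the double knockout pool and to 1214, 1119 and 1020 in the MDR2 knockout, GHR knockout and wild-type pools. The part of these cell types in the values of Ccl2, Ccr2, Cx3cr1, Cxcl16 and the other genes was not tested.

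**Figure D5:**
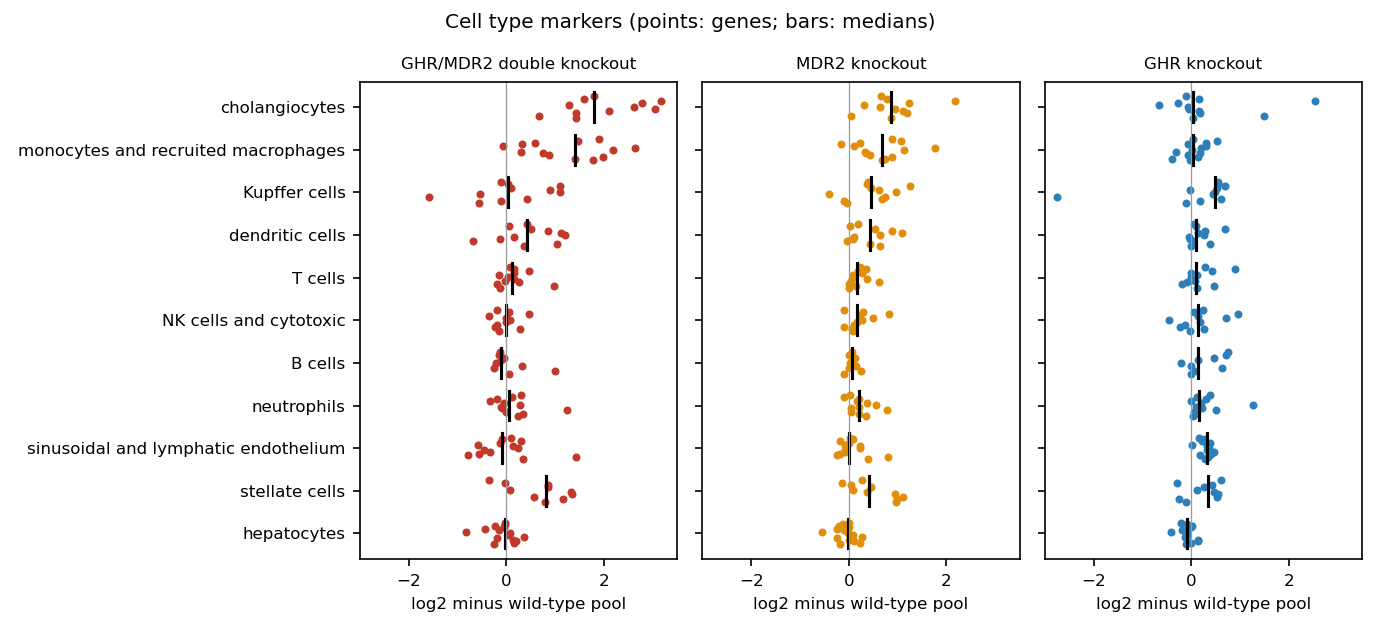
Log2 difference from the wild-type pool of each marker gene (points) and the median (bars) for the double knockout, MDR2 knockout and GHR knockout pools, by cell type. Cholangiocyte and monocyte markers lie furthest to the right in the double knockout pool, with medians of 1.79 and 1.41, while T cell, NK cell and B cell markers lie near 0. Of those lymphocyte markers, 1 of 12, 0 of 11 and 1 of 9 reached the level in any pool, so their values may be background signal.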

How the data were processed

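Liver RNA from 4 pools, 1 per genotype, was hybridised to Affymetrix arrays. The authors deposited linear RMA intensities, made with Affymetrix Expression Console 1.1 per the submitters' processing notes; the values are whole numbers from 6 to 22355. Of 35556 rows, 21789 name 1 gene symbol, 1621 several and 12146 none; the row with the highest mean stood for a gene. The deposited intensity was taken to log2 here. Genes were counted at 1.5-fold where the higher pool reached 100. The additive fit used limma 3.58.1 in R 4.3.3 (lmFit, eBayes, prior degrees of freedom 4.34) with Benjamini-Hochberg adjustment at 0.05. On simulated data its share of false calls exceeded the nominal one in most runs. Every gene at or above the level is named with 4 values, in order of role; others appear by count, or as the ligand or receptor of a named gene. Members and lists were chosen with earlier results of these data known. Alternatives were the level filter, centring, cyclic loess, averaging of rows, log2(intensity + 16), limma's trend and robust options, and thresholds. All p-values measure the spread about an additive model over 4 pools. The number of arrays limits the precision.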

Additional observations from a re-analysis of the deposited data

Results flagged for a closer look

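Cxcl9 differed in direction between backgrounds. With GHR loss its difference was -2.55 log2 between the double knockout and MDR2 knockout pools and 0.76 between the GHR knockout and wild-type pools. With MDR2 loss the difference was -2.20 log2 between the double knockout and GHR knockout pools and 1.12 between the MDR2 knockout and wild-type pools. Cxcl11 likewise was at -1.03 log2 between the double knockout and MDR2 knockout pools and at 0.91 between the GHR knockout and wild-type pools. Each group is 1 array, so these differences between backgrounds were not tested, and the pairs that use the GHR knockout pool rest on the array with Xist at 1400.

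Rows that list Ccl21a, Ccl21b, Ccl21c and Ccl21d together, near-identical genes of lymphatic and lymphoid tissue, stand outside the members since no row belongs to 1 gene. Their 4 rows gave the same values, 215 in the double knockout pool, 125 in the MDR2 knockout pool, 79 in the GHR knockout pool and 96 in the wild-type pool. The double knockout was 2.24-fold above wild type. The probe sets cannot tell the copies apart.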

How the results depend on the processing

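No paired analysis was possible because each genotype is a single pooled array, and no replicate could be left out. Without the level filter, 1 chemokine gene was lower in the MDR2 knockout than in the wild type (0 with it) and 2 were lower in the GHR knockout than in the wild type (1 with it). The medians of genes passing the filter, 0.61 for MDR2 knockout over wild type, 0.48 for double knockout over MDR2 knockout, 0.88 over GHR knockout and 0.94 over wild type, were then 0.21, 0.084, 0.15 and 0.29 over all 56. At a level of 329 (the 75th percentile), the higher counts became 3 for MDR2 knockout over wild type, and 4, 5 and 5 for the double knockout over MDR2 knockout, GHR knockout and wild type. The lower counts became 1 for double knockout over MDR2 knockout and 0 for double knockout and GHR knockout over wild type, and medians became 1.06, 1.13 and 1.47 for MDR2 knockout over wild type and double knockout over GHR knockout and wild type, and 0.61 for GHR knockout over wild type (0.32 at 100). At a fold of 2, the lower counts were 2 for double knockout over MDR2 knockout, 2 over GHR knockout and 0 for GHR knockout over wild type, with 1 higher in the last. Centred on hepatocyte markers, 3 were lower in the double knockout than in the MDR2 knockout. Fewer genes enter under a higher level; otherwise the cause was not tested.

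The limma count of chemokine genes that rose with MDR2 loss was 0 without the filter, 1 at the 75th percentile and 13 at an adjusted p threshold of 0.10. Adjusted p-values over the alternatives ran from 0.024 to 0.327 for Ccl2, 0.0185 to 0.327 for Ccl6, 0.0118 to 0.327 for Ccr2, 0.0187 to 0.327 for Cxcl14 and 0.0132 to 0.327 for Cxcl16. With GHR loss the count was 1, Cxcl13, at 0.10 and when the rows of a gene were averaged (adjusted p = 0.0427; up to 0.518 without the filter). Over all genes, MDR2 loss gave 322 higher and 82 lower calls, against 0 and 0 without the filter and 57 and 12 at the 75th percentile. The lower calls were 39 after cyclic loess, 50 after median centring, 30 after hepatocyte centring and 129 with a variance trend. GHR loss gave 22 higher and 34 lower calls, against 0 and 0 without the filter, 11 and 21 at the 75th percentile, 13 higher after cyclic loess, 14 higher after median centring and 14 and 17 after hepatocyte centring. Median centring changed the share of higher among all 1.5-fold calls to 49.3% for double knockout over MDR2 knockout (64.9% as deposited) and 41.5% for GHR knockout over wild type (63.2%). Hepatocyte centring gave 799 higher and 266 lower calls for MDR2 knockout over wild type (627 and 368 as deposited), 65.0% for double knockout over GHR knockout (50.1%) and 79.2% over wild type (64.3%), and cyclic loess gave 49.8% for GHR knockout over wild type. Of the log2 differences of named genes recomputed, 689 moved by less than the spread and 19 by more. In 11 of the 708 the sign changed, all of them values of at most 0.11 log2 as deposited, and no difference past 1.5-fold changed sign.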
